A study of Mus musculus with 4 samples.

Results

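Levels of 8 CC chemokine genes, Ccl2, Ccl7, Ccl8, Ccl11, Ccl12, Ccl5, Ccl9 and Ccl20, are described here in the mouse colon carcinoma line MC38, among 24346 gene symbols measured by RNA sequencing. The series files list 24 CC ligand symbols in all. Gene expression was compared between 2 libraries labelled Arid5a knockout (KO) and 2 libraries labelled wild type (WT), each a replicate 1 and a replicate 2 of MC38 cells. Arid5a encodes an RNA-binding protein that stabilises cytokine mRNAs, and the comparison asks which transcripts differ when it is deleted. The labels give no deleted exon, and do not say whether the knockout line was 1 clone or whether replicates came from separate cultures. The 8 genes were picked by name after their levels in KO and WT libraries were known, so their differences are given as a description, with no test.

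CC chemokines are small secreted proteins, named for a pair of adjacent cysteines, that attract leukocytes through G protein-coupled receptors. Ccl2, Ccl7, Ccl8 and Ccl12 are the mouse monocyte chemoattractant proteins. Ccl2 draws inflammatory monocytes through Ccr2, and tumour cells are a known source of it. Inflammatory cytokines acting through NF-kB, and interferons acting through STAT and IRF factors, are the best known inducers of the family, and AU-rich elements shorten the life of many cytokine mRNAs.

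Arid5a itself went against the labels. It had 2.16 and 1.77 FPKM in the libraries labelled KO, against 0.225 and 0.124 FPKM in those labelled WT. Every direction given here therefore refers to the labels and not to a loss of Arid5a, and whether the counted fragments lie in the deleted part is not known. If the labels were exchanged, every direction would be reversed, and this was not tested. FPKM counts fragments relative to transcript length and library depth, so it allows levels to be compared between genes. Depth, estimated from the smallest values, was about 10200000 and 11400000 fragments in the libraries labelled KO and 15300000 and 11700000 in those labelled WT. Colon epithelial markers were nearly absent. All 14, among them Cdh1 and Epcam, were below a mean of 1 FPKM, and their summed level was 0.839 to 1.11 FPKM in the libraries labelled KO and 0.723 to 1.29 FPKM in those labelled WT.

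Ccl2, Ccl7, Ccl11, Ccl12 and Ccl8 are neighbours on the plus strand of chromosome 11 (GRCm38). Ccl2 lies from 82035571 to 82037453, Ccl7 from 82045712 to 82047525, Ccl11 from 82057823 to 82062955, Ccl12 from 82101845 to 82103400 and Ccl8 from 82115185 to 82116799. Ccl5 (83525778 to 83530518) and Ccl9 (83572919 to 83578636) lie farther along the same chromosome on the minus strand, and Ccl20 is on chromosome 1 (83116766 to 83119167, plus strand). The coding sequences of the 5 neighbours are 43.9% to 66.3% identical over 10 pairwise global alignments of nucleotides. The lowest values are those of pairs with Ccl2, whose coding sequence has 447 bases, against 294 bases for Ccl7, Ccl8 and Ccl11. Gaps count as differences in all identities given here, so unequal length alone lowers them. These values therefore do not show that Ccl2 is the most divergent of the 5. In the 15 pairs of a neighbour with Ccl5, Ccl9 or Ccl20 the range was 38.5% to 51.8%. No stretch of 31 bases is shared between the transcripts of any members. With transcripts of other genes, Ccl9 shares 120 of 3015 such stretches, Ccl5 shares 5 of 928 and Ccl11 shares 1 of 1052, so their reads can be ambiguous to that extent.

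The promoter windows of Ccl8 and Ccl12, from 250 bases before the start to 50 after it (RefSeq, GRCm38.p6), are shown because these adjacent paralogs had very different levels. Capitals mark the TATAAA box, the only match in either window among 5 motifs searched on both strands.
Ccl8, chr11:82114935-82115234, plus strand: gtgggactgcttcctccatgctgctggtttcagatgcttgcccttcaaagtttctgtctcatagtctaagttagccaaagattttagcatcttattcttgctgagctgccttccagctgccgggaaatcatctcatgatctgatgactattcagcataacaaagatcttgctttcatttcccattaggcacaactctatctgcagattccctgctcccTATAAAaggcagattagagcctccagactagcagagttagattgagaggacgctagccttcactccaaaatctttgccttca
Ccl12, chr11:82101595-82101894, plus strand: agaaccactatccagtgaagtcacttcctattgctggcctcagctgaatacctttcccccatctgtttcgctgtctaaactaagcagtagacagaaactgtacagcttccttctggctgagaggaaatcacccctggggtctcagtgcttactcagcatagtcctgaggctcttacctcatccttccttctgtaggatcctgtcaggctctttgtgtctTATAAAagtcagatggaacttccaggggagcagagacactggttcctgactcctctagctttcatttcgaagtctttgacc
The box starts at base -32 in Ccl8 and at base -31 in Ccl12, and 14.2% of 27025 promoter windows of the same length hold it. The windows are 55.1% identical over their global alignment. Neither held the interferon element, GAAA, any 2 bases and GAAA (3.49% of all windows), the STAT element TTCNNNGAA (8.47%), the AP-1 element TGANTCA (7.93%) or the NF-kB consensus (4.35%). The NF-kB consensus was matched in the windows of Ccl9, which also held the AP-1 element and TATAAA, and of Ccl20. Windows of Ccl2, Ccl5, Ccl7 and Ccl11 were not available, so no motif was searched in them. Overlapping matches occurred only in Ccl9, where TATAAA was read on both strands.

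The AU-rich pentamer ATTTA, the core of the elements through which cytokine mRNAs are degraded, was counted in the 3′ UTR of the longest coding transcript of each gene (GENCODE M21). Its sites in the most abundant of the 8 mRNAs and in its neighbour Ccl7 are shown with the pentamer in capitals.
Ccl2, chr11:82037208-82037232, plus strand: tattaaacttATTTAacttattgat
Ccl7, chr11:82047257-82047281, plus strand: taatatttttATTTAattagccatg
Ccl7, chr11:82047416-82047440, plus strand: caaagattttATTTAaaaactttta
Ccl2 had 1 pentamer in 275 bases, and 36.3% of 1755 3′ UTRs of like length (from 20% shorter to 25% longer) had at least as many. Ccl7 had 2 in 435 bases (19.7% of 2059). Ccl8, with 165 bases, and Ccl5, with 199 bases, had 0. Of 3′ UTRs of like length, only 20.6% and 24.9% had any. Ccl12 had 5 in 167 bases (0.484% of 1447) and Ccl11 had 5 in 644 (3.32% of 2472). Ccl9 had 5 in 2465 (46.8% of 2759) and Ccl20 had 9 in 1050 (0.772% of 2979).

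Ccl2 was the most abundant CC chemokine in every library. It had 496.3 and 494.5 FPKM in the libraries labelled KO, against 241 and 247 FPKM in those labelled WT. The groups did not overlap, and within each group the libraries differed by far less than the groups did. The log2 difference on the log2(FPKM + 1) scale was 1.02 ± 0.026 (SE), and mean FPKM was 2.03 times that of the libraries labelled WT. Ccl2 ranked 175 and 179 among all symbols by FPKM in the libraries labelled KO and 365 and 354 in those labelled WT. The levels correspond to about 3073 and 3400 fragments in the libraries labelled KO and 2232 and 1753 in those labelled WT, so counting error is small. Of 10827 genes tested, 122 had a larger log2 difference. In bulk RNA, fewer cells of a type and less RNA per cell cannot be told apart.

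Ccl8 went the other way. In mice it acts mainly on Ccr8, a receptor of skin-homing and type 2 helper T cells. It had 4.49 and 4.33 FPKM in the libraries labelled KO, against 44.9 and 38.7 FPKM in those labelled WT. Both libraries labelled KO were far below both labelled WT. The ratio of the WT to the KO mean FPKM was 9.47 and the log2 difference was -2.98 ± 0.080 (SE), with 22 of 10827 genes at a lower one. In fragments the levels correspond to about 14 and 15 in the libraries labelled KO and 208 and 137 in those labelled WT, so the KO level rests on few fragments.

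Ccl7, a monocyte attractant that binds Ccr2 and other receptors, lies between the starts of Ccl2 and Ccl8. It had 12.3 and 10.7 FPKM in the libraries labelled KO and 11.01 and 9.19 FPKM in those labelled WT. These groups overlapped, and the log2 difference was 0.17 ± 0.11 (SE). Without WT replicate 2 it was 0.054, and without WT replicate 1 it was 0.29. The 4 levels rest on about 75, 72, 100 and 64 fragments, in the same order.

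Ccl5 (RANTES), which attracts T cells, monocytes and eosinophils through Ccr1 and other receptors, had 41.2 and 41.5 FPKM in the libraries labelled KO. In those labelled WT it was at 26.6 and 27.3 FPKM. The groups did not overlap, the ratio of means was 1.53 and the log2 difference was 0.60 ± 0.036 (SE). The levels rest on about 137 and 153 fragments in the libraries labelled KO and 132 and 104 in those labelled WT.

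The remaining 4 genes were below 1 FPKM in every library. Ccl11 (eotaxin), a ligand of Ccr3 that attracts eosinophils, had 0.225 and 0.405 FPKM in the libraries labelled KO and 0.150 and 0.196 FPKM in those labelled WT. These values correspond to about 2 and 4 fragments against 2 and 2, so no difference was detectable at this depth although the values did not overlap. Ccl9, a ligand of Ccr1, had 0.0347 and 0 FPKM in the libraries labelled KO and 0.0697 and 0.0303 FPKM in those labelled WT, about 1, 0, 3 and 1 fragments. Ccl20, the ligand of Ccr6, was at 0.148 FPKM (1 to 2 fragments, depending on the transcript) in KO replicate 2 and listed at 0 in KO replicate 1 and in both WT libraries. Ccl12 was listed at 0 in all 4 libraries.

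**Figure D1:**
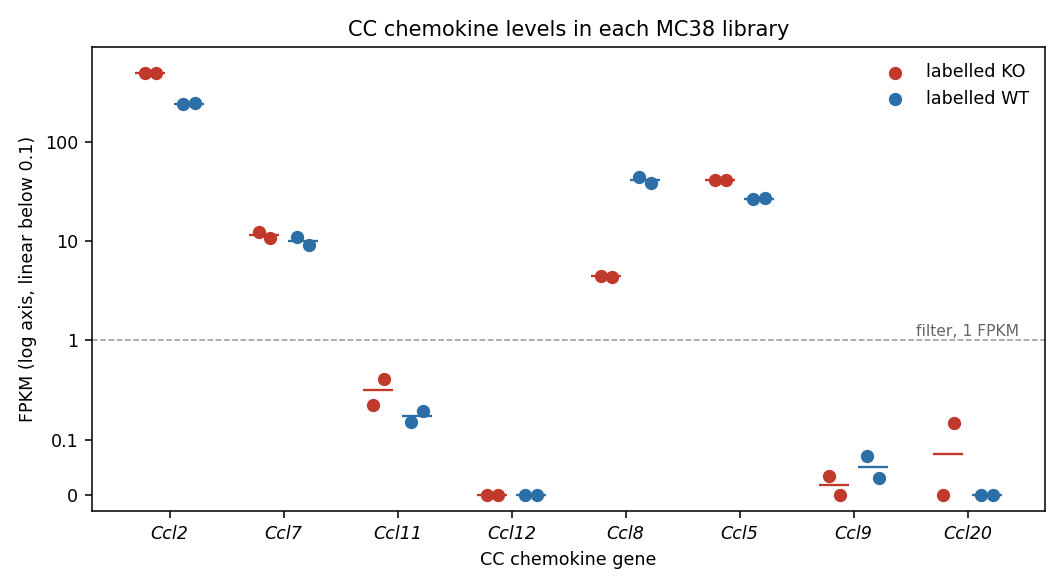
FPKM of the 8 CC chemokine genes (log axis, linear below 0.1) in each library, with libraries labelled KO left of those labelled WT and a bar at each mean of 2. Ccl2 is at 496.3 and 494.5 FPKM in the libraries labelled KO against 241 and 247 FPKM in those labelled WT, Ccl8 is at 4.49 and 4.33 FPKM against 44.9 and 38.7 FPKM, and 4 genes stay below 1 FPKM.

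In 3 of the 8 genes, Ccl2, Ccl5 and Ccl11, both libraries labelled KO lay above both labelled WT, as they did for 39.4% of all genes tested. In 1, Ccl8, both lay below, as for 38.2% of genes tested, and together 77.5% of genes tested had groups that did not overlap, while limma called 47.6% in either direction. Those shares cover the 10827 genes above the filter, and 4 of the 8, Ccl11 among them, were below it. Because the genes were chosen on this contrast, nothing is read from these counts. The order of levels was Ccl2, Ccl5, Ccl7, Ccl8 in the libraries labelled KO and Ccl2, Ccl8, Ccl5, Ccl7 in those labelled WT. Each neighbour in these orders was separated by more than the spread within its group.

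The balance between members does not depend on the scaling of a library. Ccl2 exceeded Ccl8 by 110.5 and 114 times in the libraries labelled KO, against 5.38 and 6.39 times in those labelled WT. Ccl5 was 9.18 and 9.57 times Ccl8 in the libraries labelled KO, against 0.592 and 0.707 times in those labelled WT, so their order was opposite between the groups. The ratio of Ccl2 to Ccl7 was 40.2 and 46.4 in the libraries labelled KO and 21.9 and 26.9 in those labelled WT. Ccl2 to Ccl5 was 12.0 and 11.9, against 9.07 and 9.05.

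The FPKM of all 24 CC ligands summed to 564 ± 1.09 (SD, n = 2) in the libraries labelled KO and 333 ± 2.81 in those labelled WT. Ccl2 made up 87.8% and 87.7% of that sum in the libraries labelled KO, against 72.0% and 74.7% in those labelled WT. Ccl8 made up 0.795% and 0.769% in the libraries labelled KO, against 13.4% and 11.7% in those labelled WT. The share of Ccl5 was 7.30% and 7.36%, against 7.94% and 8.25%. The 8 genes together held 97.9% to 98.1% of the sum in the libraries labelled KO and 96.7% to 97.4% in those labelled WT.

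**Figure D2:**
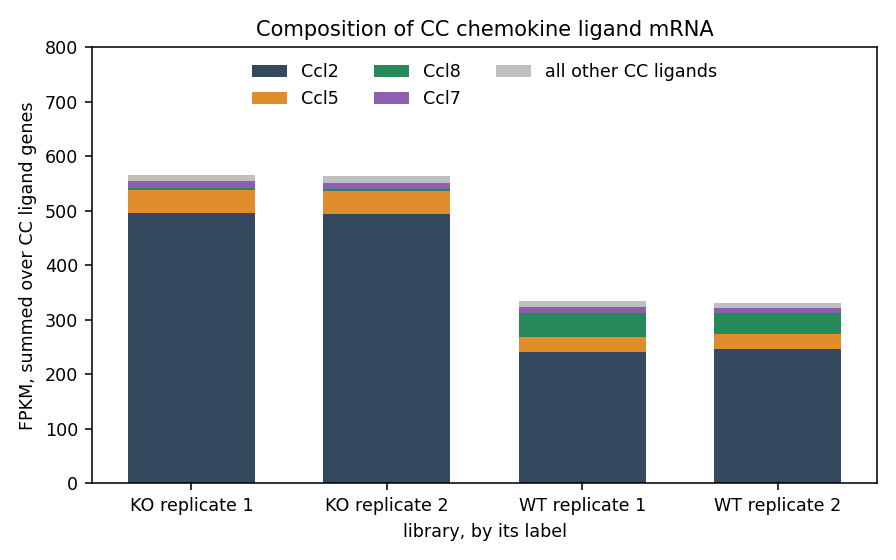
FPKM of CC ligand genes stacked by gene for each library. The total is 564 FPKM on average in the libraries labelled KO and 333 FPKM in those labelled WT, with Ccl2 the main part of each bar and Ccl8 a visible part of the bars labelled WT alone.

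**Figure D3:**
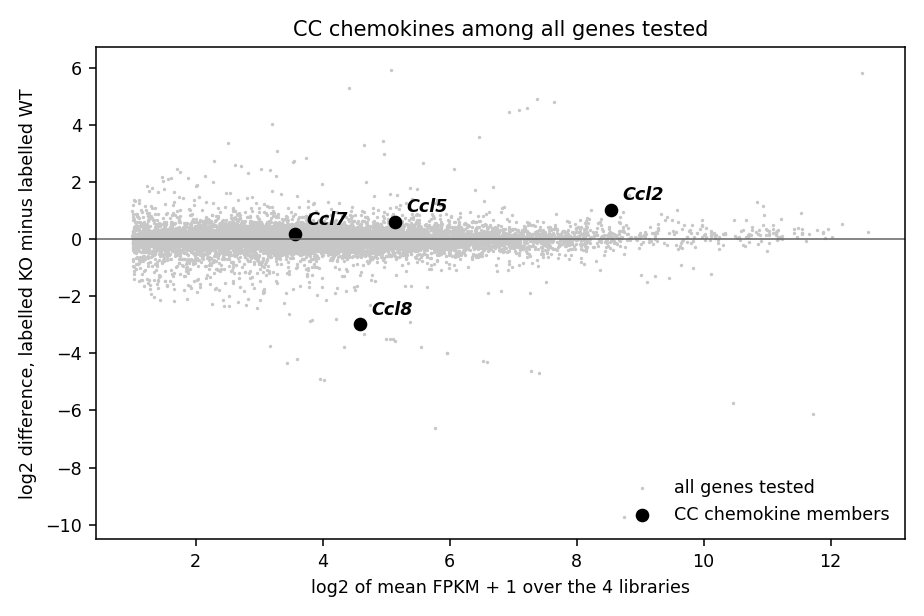
Log2 difference, labelled KO minus labelled WT, against the log2 of mean FPKM + 1 for all 10827 genes tested (grey) and the 4 CC chemokines above the filter (black). Ccl2 is at 1.02, Ccl8 at -2.98 and Ccl7 at 0.17. The members were chosen on this contrast, and their distance from genes of like level was not tested.

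The genes around the chemokines give the setting of these differences along chromosome 11. Within 500 kb of the Ccl2 to Ccl8 group, the files hold 5 further symbols, and 0 of them passed the filter of a mean of 1 FPKM. Within 500 kb of Ccl5 and Ccl9, 12 of 29 further symbols passed it. Of these, 1 was called higher and 5 lower (limma on log2(FPKM + 1), Benjamini-Hochberg adjusted p under 0.05), against 24.4% and 23.3% of all genes tested. Taf15, an RNA-binding protein, was higher, at 122 and 112 FPKM in the libraries labelled KO and 96.2 and 92.5 FPKM in those labelled WT (log2 difference 0.31 ± 0.049, adjusted p = 0.00601). Slfn3, a Schlafen family gene, was lower, with a log2 difference of -0.42 ± 0.050 (adjusted p = 0.00238), as was AI662270, at -0.59 ± 0.028 (adjusted p = 0.000195). The calls of AA465934 (-0.68), Ap2b1 (-0.12), which encodes an adaptor subunit of clathrin coats, and Ddx52 (-0.14), which encodes an RNA helicase, were weak. Leaving out 1 library ended them. The adjusted p of Ap2b1 and Ddx52 was 0.0577 to 0.154 in each of the 4 fits that omit a library, and that of AA465934 was 0.0506 to 0.167 without KO replicate 2, WT replicate 1 or WT replicate 2.

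**Figure D4:**
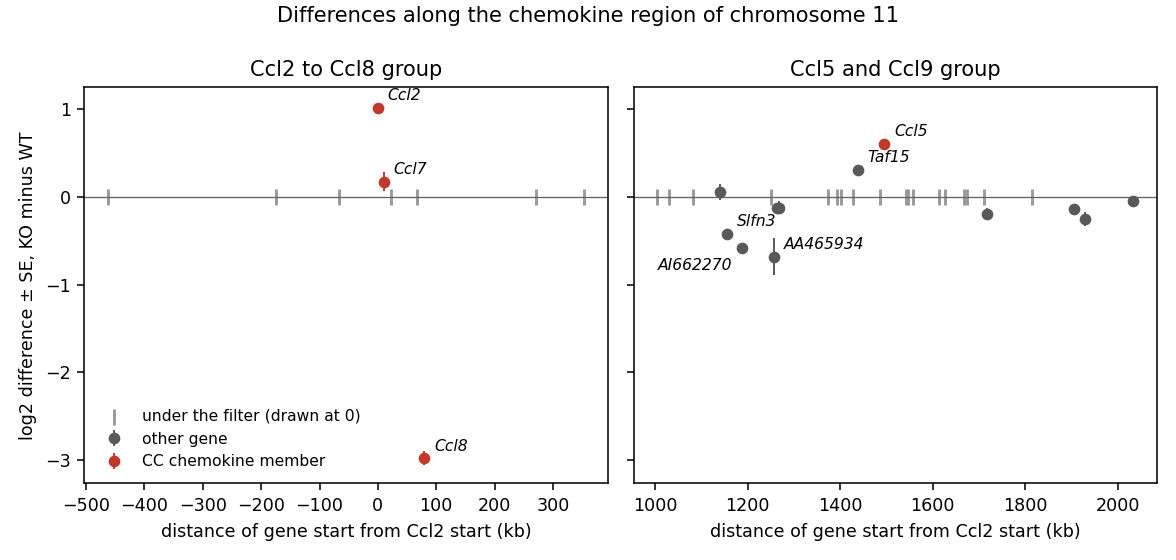
Log2 difference ± SE, labelled KO minus labelled WT, against the distance of each gene's start from that of Ccl2 in kb, for the Ccl2 to Ccl8 group (left) and the Ccl5 and Ccl9 group (right), with genes under the filter as ticks at 0 and Snord7, a small nucleolar RNA, left out. Ccl2 at 1.02 and Ccl8 at -2.98 are 79.6 kb apart, and the other genes near Ccl5 lie between -0.68 and 0.31.

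Across the 4 libraries, the genes whose centred log2 pattern was nearest to that of Ccl2 among 8135 compared were Atf4, a transcription factor of amino acid stress, Cdkn1a, a cell cycle inhibitor, and Pck2, a mitochondrial enzyme of gluconeogenesis. Their root mean square distances were 0.010, 0.018 and 0.023 on the log2 scale. Atf4 had 400.3 and 403 FPKM in the libraries labelled KO, against 193 and 198 FPKM in those labelled WT. The nearest to Ccl8 were Enpp2 (autotaxin), Oas2 and Ifi27l2a, the last 2 interferon-induced genes, at larger distances of 0.14, 0.19 and 0.26. Enpp2 had 3.55 and 3.75 FPKM in the libraries labelled KO, against 30.7 and 31.8 FPKM in those labelled WT. With 2 groups of 2, such likeness is mostly a like difference between the groups.

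Among 16 other CC ligands, 15 were below the filter and 9 of these were listed at 0 in all 4 libraries. Ccl25, a ligand of Ccr9 known from thymus and small intestine, was the 1 tested. It had 8.41 and 10.6 FPKM in the libraries labelled KO and 7.87 and 6.53 FPKM in those labelled WT, with a log2 difference of 0.35 ± 0.13 (limma, adjusted p = 0.0751), and it was called without KO replicate 1. Ccl4 had 1.08 and 0.968 FPKM in the libraries labelled KO and 0.288 and 1.13 FPKM in those labelled WT, about 2 to 6 fragments each. Ccl1, a ligand of Ccr8, had 0.655 and 0.295 FPKM in the libraries labelled KO and 1.97 and 0.572 FPKM in those labelled WT. None of the 16 listed receptors, CC chemokine receptors and atypical chemokine receptors together, reached the filter. Ccr2, Ccr1, Ccr3 and Ccr6 were listed at 0 in every library, and the highest, Ccr10, had 1.09 and 0.808 FPKM in the libraries labelled KO and 0.686 and 0.559 FPKM in those labelled WT.

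Of 15 NF-kB genes tested, 4 were called higher, 2 lower and 9 neither (limma, adjusted p under 0.05), against 24.4% called higher and 23.3% lower among all genes tested, so the share called was no larger than the background of 47.6%. They had a median log2 difference of 0.012 against 0.0056 over all genes tested. Nfkbia, the inhibitor that NF-kB itself induces, rose to 58.4 and 56.8 FPKM in the libraries labelled KO, against 32.6 and 31.1 FPKM in those labelled WT (log2 difference 0.84 ± 0.041, adjusted p = 0.000205). The subunit Nfkb1 rose to 47.0 and 44.7 FPKM, against 32.0 and 31.4 FPKM (0.52 ± 0.040, adjusted p = 0.000717). The subunit Nfkb2 fell by 0.20 (adjusted p = 0.00505). Calls for Rel (0.33), Nfkbiz (0.35) and Nfkbib (-0.15) did not survive the omission of some single libraries (adjusted p of 0.0696 to 0.122). Genes called higher numbered 2 without WT replicate 1. Those called lower numbered 4 without KO replicate 2 and 1 in each of the other 3 such fits. The subunit Rela had 32.0 and 32.8 FPKM in the libraries labelled KO and 31.2 and 31.2 FPKM in those labelled WT and was not called.

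Of 16 tested genes of interferon receptors, JAK kinases, STAT and IRF factors and their SOCS inhibitors, 4 were called higher and 7 lower, where 24.4% and 23.3% of all tested genes were, with a median log2 difference of -0.086. Irf7, which amplifies interferon production, rose to 11.6 and 11.2 FPKM in the libraries labelled KO, against 5.50 and 4.86 FPKM in those labelled WT (1.01 ± 0.074, limma adjusted p = 0.000599). Jak1 rose by 0.28 (adjusted p = 0.00331) and Irf1, induced by interferon gamma, by 0.26 (adjusted p = 0.00569). Stat3, also a reported Arid5a target, fell to 19.5 and 19.3 FPKM, against 27.0 and 28.9 FPKM (-0.50 ± 0.048, adjusted p = 0.00132). The calls of the lower genes Tyk2, Irf3, Irf9, Socs1 and Socs3 and of the higher gene Ifngr2 were lost in some alternatives. The count of lower genes was 4 without KO replicate 1, 3 without KO replicate 2, 2 without WT replicate 1 and 3 without WT replicate 2.

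Of 13 tested genes among the cytokines, receptors and adaptors that induce CC chemokines, 8 were called lower and 1 higher (all tested genes: 23.3% lower and 24.4% higher), with a median log2 difference of -0.24. The cytokines Tnf, Il1a, Il1b, Il6, Ifnb1 and Ifng were all below the filter. Tlr3, the sensor of double-stranded RNA, fell to 4.58 and 4.70 FPKM in the libraries labelled KO, against 11.6 and 10.9 FPKM in those labelled WT (-1.12 ± 0.064, limma adjusted p = 0.000322). Tlr4, the endotoxin receptor, fell to 3.15 and 2.98 FPKM, against 5.20 and 4.92 FPKM (-0.58 ± 0.075, adjusted p = 0.00325). Tnfrsf1a, the main TNF receptor, fell by 0.47, Il17ra by 0.46 and the shared IL-6 family subunit Il6st by 0.37 (adjusted p of 0.000631, 0.00308 and 0.00846). The 1 rise, Pdgfa (0.17), had an adjusted p of 0.0537 to 0.134 without KO replicate 1, KO replicate 2 or WT replicate 2, and 5 falls were called without WT replicate 1.

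Of 14 genes for proteins that stabilise or degrade cytokine mRNAs, 6 were called higher and 2 lower, beside 24.4% and 23.3% of all tested genes, with a median log2 difference of 0.16. One of the 6 is Arid5a itself (1.33), which passed the filter only through its level in the libraries labelled KO. With either of them left out Arid5a did not pass, so nothing is read from its call. Hnrnpd, the AU-rich element binding protein AUF1, rose to 53.5 and 52.7 FPKM in the libraries labelled KO, against 30.6 and 30.4 FPKM in those labelled WT (0.78 ± 0.034, limma adjusted p = 0.000171). Zfp36l1, which recruits the deadenylase to AU-rich elements, rose by 0.64 (adjusted p = 0.00115). Zc3h12a (Regnase-1), an endonuclease that cuts cytokine mRNAs, rose by 0.60 (adjusted p = 0.00342). Zfp36l2, a relative of Zfp36l1, fell by 0.39 (adjusted p = 0.000605). The second fall, that of Zfp36 (tristetraprolin, -0.21), was lost on omission of any library (adjusted p of 0.0691 to 0.155), as was the rise of Khsrp (0.11; 0.0542 to 0.108). Omitting WT replicate 2 ended the call of Tia1 (0.38; adjusted p = 0.0564). Among 5 other mRNAs reported as Arid5a targets, Il6, Tnfrsf4, Tbx21 and Ido1 were below the filter and Stat3 was the 1 tested.

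Enzymes and proteoglycans that cut chemokines or hold them at the cell surface were called higher in 4 of 12 cases and lower in 3, set beside 24.4% and 23.3% of all tested genes, with a median log2 difference of 0.086. Gpc1, a heparan sulfate proteoglycan anchored in the membrane, fell to 38.8 and 41.8 FPKM in the libraries labelled KO, against 151 and 153 FPKM in those labelled WT (-1.89 ± 0.044, limma adjusted p = 3.78e-05). Sdc2 fell by 0.52 and the heparan sulfate polymerase Ext1 by 0.44 (adjusted p of 0.000877 and 0.00223). Sdc3 rose to 8.59 and 9.11 FPKM, against 3.84 and 4.11 FPKM (0.99 ± 0.070, adjusted p = 0.00057), and Ext2 and Sdc4 rose by 0.32 and 0.23 (adjusted p of 0.00453 and 0.00867). The call of Sdc1 (0.18) was lost without KO replicate 2 or WT replicate 1 (adjusted p of 0.0824 to 0.102), and lower genes numbered 5 in place of 3 with libraries scaled to the same FPKM sum. Dpp4, the protease that trims many chemokines, was listed at 0 in all libraries.

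**Figure D5:**
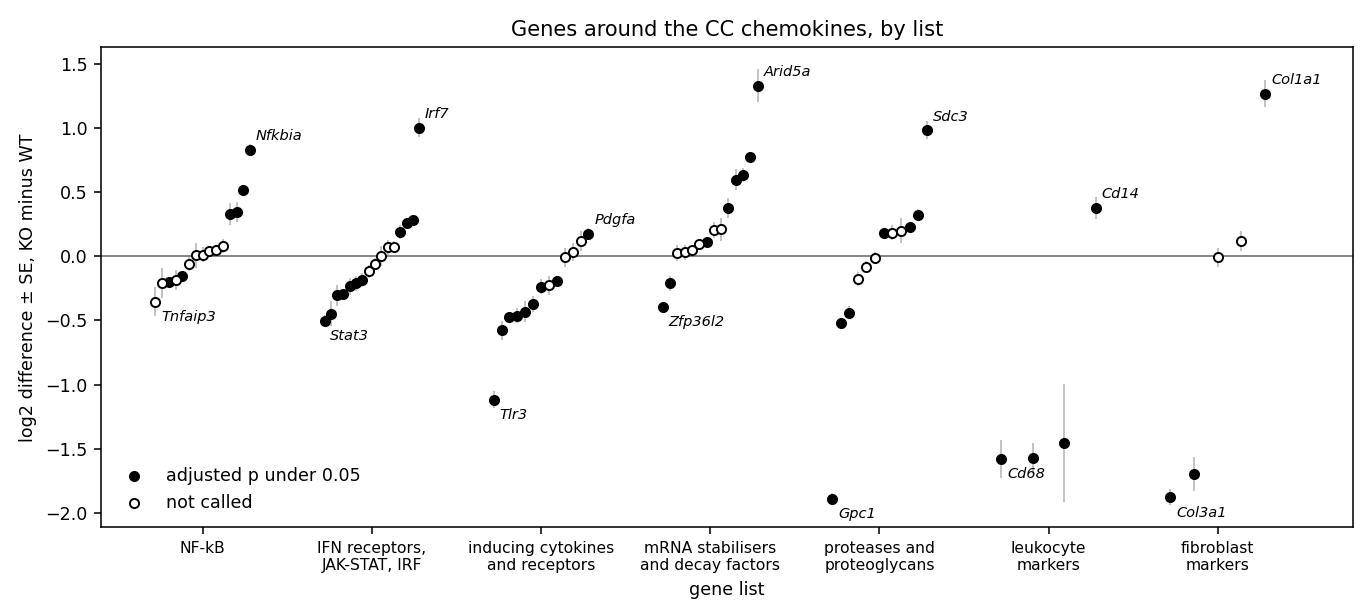
Log2 difference ± SE, labelled KO minus labelled WT, of the tested genes of 7 lists, filled where called by limma at an adjusted p under 0.05 and open where not. Tlr3 at -1.12 is the lowest of the inducing receptors, Arid5a at 1.33 the highest of the mRNA regulators and Gpc1 at -1.89 the lowest of the proteoglycans. Arid5a passed the filter only through the libraries labelled KO, so nothing is read from its call.

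Cells other than the carcinoma line could also give chemokine mRNA. Of 18 leukocyte markers in the files, 14 were below the filter, and 7, among them Cd3e, Itgam, Itgax, Adgre1, S100a9 and H2-Ab1, were listed at 0 in every library. The summed level of the list was 15.9 to 17.2 FPKM in the libraries labelled KO and 23.7 to 26.7 FPKM in those labelled WT. Of the 4 tested, 3 were called lower and 1 higher, where 23.3% and 24.4% of all tested genes were. Cd68 had 1.03 and 1.67 FPKM in the libraries labelled KO, against 6.14 and 5.80 FPKM in those labelled WT (-1.58 ± 0.15, limma adjusted p = 0.00118). Cd74, at 0.574 and 0.565 FPKM in the libraries labelled KO and 4.12 and 3.29 FPKM in those labelled WT, and S100a8 passed the filter only through the libraries labelled WT, so nothing is read from their calls. The call of S100a8 (-1.46) was lost without KO replicate 2 (adjusted p = 0.15), with a pseudocount of 0.1 (0.077), with no filter (0.0953) and with the replicate number as a block (0.107), and that of Cd14 (0.38) without KO replicate 2 or WT replicate 1 (adjusted p of 0.055 and 0.078). Cd14, the most abundant of the list, had 12.0 and 13.8 FPKM in the libraries labelled KO, against 9.18 and 10.1 FPKM in those labelled WT. Ptprc, the marker common to leukocytes, was listed at 0 in both libraries labelled KO and at 0.0655 and 0.0854 FPKM in those labelled WT. Of 10 fibroblast markers, 5 were tested, with 1 higher (Col1a1, 1.27) and 2 lower (Col3a1 at -1.88 and Dcn at -1.70), beside 24.4% and 23.3% of all tested genes. Dcn passed the filter only through the libraries labelled WT and Col1a1 only through those labelled KO, so nothing is read from these 2 calls. With either of the libraries labelled KO left out, Col1a1 did not pass the filter. The summed level of the fibroblast list was 20.1 to 20.7 FPKM in the libraries labelled KO and 41.1 to 45.2 FPKM in those labelled WT. Of the markers averaging above 1 FPKM in both groups, Cd68 and Col3a1 were lower in the libraries labelled KO, in which Ccl8 was lower too. Cd14 was higher there, with a call lost in the fits named above. Pdgfra (log2 difference -0.0068) and Pdgfrb (0.12) were not called. The part of other cells in the difference of Ccl8 was not tested.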

How the data were processed

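Cufflinks 2.2.1, SAMtools 0.1.19, Bowtie2 2.2.3 and TopHat2 2.0.13 are named, with mm10, in the submitters' processing notes. Settings, annotation and strand handling are not given in the sources used here. Per the labels' protocols, libraries were made with a stranded mRNA kit. The authors deposited FPKM values, 1 column per library. The column headers name no unit, and FPKM was taken from the use of Cufflinks and from the dependence of the smallest values on transcript length. FPKM is relative to the library, so abundant transcripts shift the others.

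FPKM values of the 2 libraries labelled KO and the 2 labelled WT were transformed to log2(FPKM + 1), and the 10827 genes averaging 1 FPKM or more were fitted in limma 3.58.1 (R 4.3.3; lmFit, eBayes with trend, no block). Tests were two-sided with Benjamini-Hochberg adjustment over all genes, called under 0.05. The scale understates changes of low genes. The fit was also run on simulated libraries with independent noise, and that run cannot show whether the replicates here are independent. Depth came from the commonest ratio of low values between libraries and the transcript lengths of 28 genes with 1 transcript, 19 of which lay within 3% of the line. Fragment numbers are estimates, and no count model was used. Coordinates are from GENCODE M21 (GRCm38), which matched 95.6% of symbols and all 8 chemokines. RefSeq promoters matched 4 of the 8, namely Ccl8, Ccl12, Ccl9 and Ccl20. ATTTA counts used 1 transcript per gene. Python 3.11.15 with pandas 2.3.3 and matplotlib 3.10.9 was used for reading and drawing. Where replicates are not separate cultures, p-values measure technical spread only.

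The members and lists were chosen with earlier results of these data known. Genes named by rule were the members, Arid5a, up to 2 called genes of largest change per list, called genes within 500 kb, and the 3 nearest patterns to Ccl2 and Ccl8 among genes of at least 5 FPKM. Other genes were named after their values were seen. Alternatives covered the pseudocount, filter, scaling, replicate block and omission of each library. Some genes of the lists enter the counts and are not reported by name here.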

Additional observations from a re-analysis of the deposited data

How the results depend on the processing

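The log2 differences of the 4 expressed chemokines kept their sign in all 10 alternatives, but many of these could not have reversed it. The filters and the replicate block leave a difference of group means unchanged. For Ccl2, Ccl8 and Ccl5, whose groups do not overlap, omission of 1 library cannot reverse the sign either. The differences ranged from 0.95 to 1.03 for Ccl2, -3.21 to -2.87 for Ccl8, 0.53 to 0.62 for Ccl5 and 0.054 to 0.29 for Ccl7. The lowest for Ccl2 and Ccl5 came with libraries scaled to the same FPKM sum, and the lowest for Ccl8 with a pseudocount of 0.1. With 1 library left out, genes called by limma numbered 3377 (without WT replicate 2) to 4109 in place of 5159, and those called lower 1607 to 2082 in place of 2518. Genes of the pathway and marker lists that were called numbered 48, of which 21 were higher and 27 lower. With 1 library left out, 13 to 17 were higher and 17 to 22 lower. Members below WT in the libraries labelled KO numbered 1 to 2 in those fits, in place of 1, the second being Ccl9 at 0 to 3 fragments. Scaling to the same FPKM sum left 1937 of 5200 called genes higher, against 2641 of 5159 without it. In that scaling the calls of Ifngr2, Khsrp, Pdgfa and Sdc1 were lost. Labels give no sign that the replicate numbers pair libraries, and the deviations of same-numbered libraries correlated at 0.138 across genes. With the replicate number as a block, 4673 genes were called, 41 of the listed genes among them, and interferon pathway genes called lower numbered 3 in place of 7. Fits that omit a library have fewer samples; the cause of the other shifts was not tested. Ccl11, Ccl9 and Ccl20 rest on 4 fragments or fewer per library.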
